A study of Mus musculus with 4 samples.

Results

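The genes described here are the chemokines and their receptors, as measured in mouse embryo fibroblasts (MEFs) that lack or carry stathmin (STMN1), a small protein that binds tubulin and destabilises microtubules. They comprise every non-control probe on the array whose gene name is a Ccl, Cxcl, Ccr or Cxcr symbol followed by a digit, or is Ccrl1, Ccrl2, Cx3cl1, Cx3cr1, Xcl1, Xcr1, Ccbp2, Cmkor1 or Darc. This gave 75 probes of 56 genes, out of 41174 probes and 27962 gene names in all. There were 35 genes of ligands and 21 genes of receptors. STMN1-/- MEFs, whose Stmn1 gene is disrupted by a neomycin cassette, were set against STMN1+/+ MEFs, both cultured without treatment from mid-gestation C57BL/6 embryos of STMN1+/- crosses. On each of 4 Agilent 2-color arrays of 60-base probes, RNA of both genotypes was hybridised together, and the dyes were swapped: STMN1-/- RNA carried Cy3 on the first 2 replicates and Cy5 on the other 2. Which line, embryo or RNA extract each array held is not given in the sources used here, so the p-values cover only array-to-array spread, and that spread may be technical.

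Chemokines are small secreted proteins that guide migrating cells along a gradient. They are grouped as CC, CXC, CX3C and XC by the spacing of their first cysteines, and they act through receptors that cross the membrane several times and couple to G proteins. Atypical receptors bind the same ligands but take them up instead of signalling through G proteins. Fibroblasts are known as a source of ligands that draw monocytes and neutrophils into tissue, while most of the receptors are known from leukocytes.

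Promoters of 6 of the genes whose levels differed are shown first, as 250 bases before the RefSeq start (GRCm38.p6), since motifs in them are counted further on. Cxcl10, Cxcl14, Ccl8 and Ccl12 were higher in STMN1-/- MEFs and Ccl6 and Cxcl7 were lower. Capitals mark letters that match one of 4 motifs searched.
Cxcl10, chr5:92348890-92349139, minus strand: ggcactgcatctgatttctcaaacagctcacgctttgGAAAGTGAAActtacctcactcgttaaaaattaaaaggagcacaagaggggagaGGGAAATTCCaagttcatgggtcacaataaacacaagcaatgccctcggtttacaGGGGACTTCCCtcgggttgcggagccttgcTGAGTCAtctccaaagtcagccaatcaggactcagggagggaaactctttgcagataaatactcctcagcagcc
Cxcl14, chr13:56296552-56296801, minus strand: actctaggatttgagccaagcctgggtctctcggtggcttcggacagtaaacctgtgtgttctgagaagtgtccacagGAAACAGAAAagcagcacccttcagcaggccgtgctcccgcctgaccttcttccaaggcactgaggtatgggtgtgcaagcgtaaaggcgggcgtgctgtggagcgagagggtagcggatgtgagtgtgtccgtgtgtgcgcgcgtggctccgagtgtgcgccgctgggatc
Ccl8, chr11:82114935-82115184, plus strand: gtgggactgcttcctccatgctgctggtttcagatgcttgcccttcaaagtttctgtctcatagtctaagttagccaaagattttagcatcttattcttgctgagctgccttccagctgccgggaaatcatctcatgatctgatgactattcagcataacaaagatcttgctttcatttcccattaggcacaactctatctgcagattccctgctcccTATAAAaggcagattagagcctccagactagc
Ccl12, chr11:82101595-82101844, plus strand: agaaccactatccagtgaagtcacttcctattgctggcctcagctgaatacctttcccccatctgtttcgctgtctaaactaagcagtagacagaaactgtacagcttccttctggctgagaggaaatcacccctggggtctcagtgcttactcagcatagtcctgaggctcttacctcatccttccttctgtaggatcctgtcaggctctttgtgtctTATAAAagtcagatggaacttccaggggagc
Ccl6, chr11:83593088-83593337, minus strand: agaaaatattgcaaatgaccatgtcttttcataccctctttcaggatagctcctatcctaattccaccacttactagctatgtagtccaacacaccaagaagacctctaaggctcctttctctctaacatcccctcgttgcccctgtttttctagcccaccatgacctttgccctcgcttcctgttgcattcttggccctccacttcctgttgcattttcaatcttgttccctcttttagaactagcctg
Cxcl7, chr5:90768268-90768517, plus strand: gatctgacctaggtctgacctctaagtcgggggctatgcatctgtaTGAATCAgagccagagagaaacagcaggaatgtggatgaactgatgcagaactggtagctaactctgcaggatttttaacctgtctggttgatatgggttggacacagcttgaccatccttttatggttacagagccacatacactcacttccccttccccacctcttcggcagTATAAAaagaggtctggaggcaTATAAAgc

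The arrays were close in coverage: a call of well above background (the scanner software's test of a spot against its surroundings) was made for 24808 to 25916 probes per array in STMN1-/- MEFs and 25122 to 26029 in STMN1+/+ MEFs, and no spot was saturated. Log2 ratios of the 2 arrays with the same dye labeling correlated at r = 0.689 and r = 0.703 across probes, and those of opposite labeling at 0.445 to 0.489, which describes probes and not replicates. Stmn1 itself was lower in STMN1-/- MEFs with both probes, by a mean log2 ratio of -2.16 ± 0.06 (SE, n = 4) and -0.39 ± 0.07 (SE, n = 4), and stayed well above background in both genotypes. The authors report that the array's Stmn1 probe also matches a sequence on another chromosome, without saying which of these probes is meant. By qRT-PCR and western blotting, they report STMN1 mRNA and protein as absent from STMN1-/- MEFs. Where these probes lie relative to the disrupted part of the gene was not analysed here. All ratios below are log2 of STMN1-/- over STMN1+/+ signal, tested against 0 with limma across 27724 probes, and a gene is called when its adjusted p is under 0.05.

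Of the 75 probes, 48 were well above background in either genotype on at least 1 array and were tested, while 27 were dim everywhere. Among the tested probes 13 were higher and 5 lower in STMN1-/- MEFs, which is 27.1% and 10.4% of them, beside 11.2% higher and 11.1% lower among all tested probes. Taking each gene by its brightest probe, 39 genes were tested and 17 were dim. Of these 39, 11 genes were higher and 4 lower, or 28.2% and 10.3%, beside 12.2% and 11.6% of all genes. Among the 11, Ccl11 and Cx3cr1 entered the test only through their STMN1-/- signals. The median log2 ratio was 0.10 over the member probes and 0.00 over all probes. The higher genes were nearly all ligands: of 25 tested ligand genes 10 were higher and 3 lower with a median log2 ratio of 0.20, and of 14 tested receptor genes 1 was higher and 1 lower with a median of -0.03. Many tested receptors, among them Ccbp2, Ccr1l1, Ccr3, Ccr8, Ccrl2 and Cxcr3, were well above background on some arrays only, unlike most tested ligands. The counts are therefore not like for like, and the part of signal level in this difference was not tested. All 18 called probes had one sign on all 4 arrays, as did 27 of the 48 tested probes in all. A test against 0 favours probes of one sign, so this adds no support to the calls. In these bulk samples, fewer producing cells and less RNA per cell cannot be told apart.

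**Figure D1:**
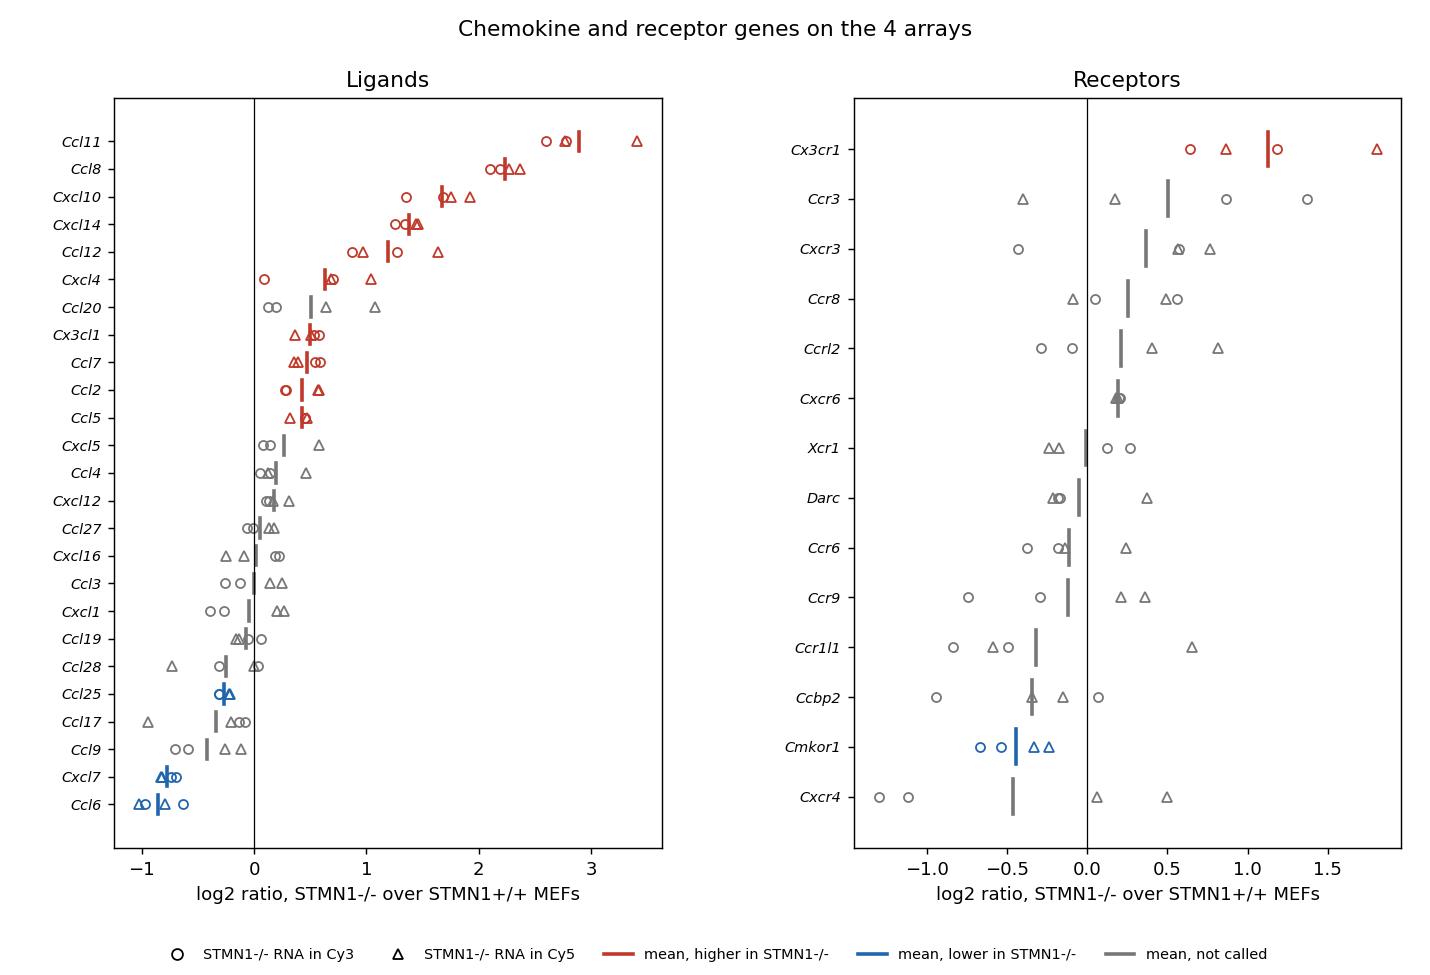
Log2 ratio of STMN1-/- over STMN1+/+ signal for the 39 tested genes, ligands left and receptors right, with circles for arrays with STMN1-/- RNA in Cy3, triangles for Cy5 and a bar for the mean (red higher, blue lower, grey not called). Ccl8 and Cxcl10 have means of 2.23 and 1.68, and the order of Ccl11 relative to them is not set, since its STMN1+/+ signal was dim on every array.

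In a run of CC ligand genes that lie side by side on chromosome 11, all 5 tested genes were higher, by amounts that ranged widely. On the array's mm7 coordinates, the probes of Ccl2, Ccl7, Ccl11, Ccl12 and Ccl8 span 79.5 kb, from chr11:82118723-82118782 (Ccl2) to chr11:82198181-82198240 (Ccl8), and whether each probe lies in an exon or a UTR was not analysed here. All of these 5 genes were higher in STMN1-/- MEFs, while Ccl1, the next member along (chr11:82258409-82258468), was dim on every array. Most of the 5 are known to attract monocytes, and Ccl11 (eotaxin) attracts eosinophils.

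Ccl11 (A_51_P331752) measured 394, 543, 569 and 615 intensity units on replicates 1 to 4 in STMN1-/- MEFs, against 64.9, 79.1, 53.6 and 90.2 in STMN1+/+ MEFs, where no array put it well above background. The groups did not overlap. Since the STMN1+/+ level has only an upper bound, Ccl11 was at least 4.65-fold higher in the processed signals of STMN1-/- MEFs. Its adjusted p of 0.000836 (limma) rests on ratios to those dim signals, and the probe entered the test through its STMN1-/- signals alone. With the normexp background correction described below, its log2 ratio was 0.60 (adjusted p = 0.072, limma). An at-least fold sets the brighter group's mean against the lowest signal well above background on each array, or the dim probe's own signal where that is higher. Ccl8 (A_51_P464703, MCP-2) measured 2962, 3172, 3204 and 4071 in STMN1-/- MEFs, against 651, 741, 622 and 844 in STMN1+/+ MEFs. Every STMN1-/- value was above every STMN1+/+ value, a mean log2 ratio of 2.23 ± 0.07 (SE, n = 4), or 4.69-fold (adjusted p = 0.000603, limma).

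Ccl12 (A_52_P249514, MCP-5) was weak, at 173, 167, 373 and 211 in STMN1-/- MEFs, against 71.7, 90.9, 191 and 67.7 in STMN1+/+ MEFs, where it was well above background on 1 array. The signals overlapped through replicate 3, while the ratio was positive on every array, a mean log2 of 1.19 ± 0.14 (SE, n = 4), 2.28-fold (adjusted p = 0.00651, limma). Since 3 of the STMN1+/+ values lay near background, this fold rests on uncertain signals, and with the normexp background correction described below the log2 ratio was 0.20 (adjusted p = 0.12, limma). The Ccl12 and Ccl8 probes were the only pair among the tested probes of different genes that shared a run of more than 12 bases, as these windows of the probes show with the shared 13 bases in capitals.
Ccl8 probe, bases 16 to 45: ttctgcagCCTTGAACCTTCAcacctgagt
Ccl12 probe, bases 1 to 30: tCCTTGAACCTTCAtgtctaggctgagagt

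The other pair of the group was bright and changed less. Ccl7 (A_51_P436652, MCP-3) measured 99072, 125274, 102011 and 111952 in STMN1-/- MEFs, against 68206, 83449, 77786 and 87483 in STMN1+/+ MEFs. The groups did not overlap, at 1.38-fold (log2 0.47 ± 0.07, SE, n = 4, adjusted p = 0.0104, limma), and the second Ccl7 probe gave 1.34-fold (adjusted p = 0.0157, limma). Ccl2 (A_51_P286737, MCP-1, the main attractant of monocytes through Ccr2) was printed on 10 spots and measured 203454, 208118, 216903 and 237555 in STMN1-/- MEFs, against 167643, 171298, 146626 and 159032 in STMN1+/+ MEFs. It was 1.34-fold higher (log2 0.43 ± 0.08, SE, n = 4, adjusted p = 0.0234, limma), with every STMN1-/- value above every STMN1+/+ value and ratios of 0.28 and 0.28 on the Cy3 arrays beside 0.56 and 0.58 on the Cy5 arrays. Ccl2 was no longer called when any 1 array was left out, with adjusted p of 0.053 to 0.086 (limma), nor was the second Ccl7 probe without replicate 1, 2 or 3 (adjusted p up to 0.068, limma).

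**Figure D2:**
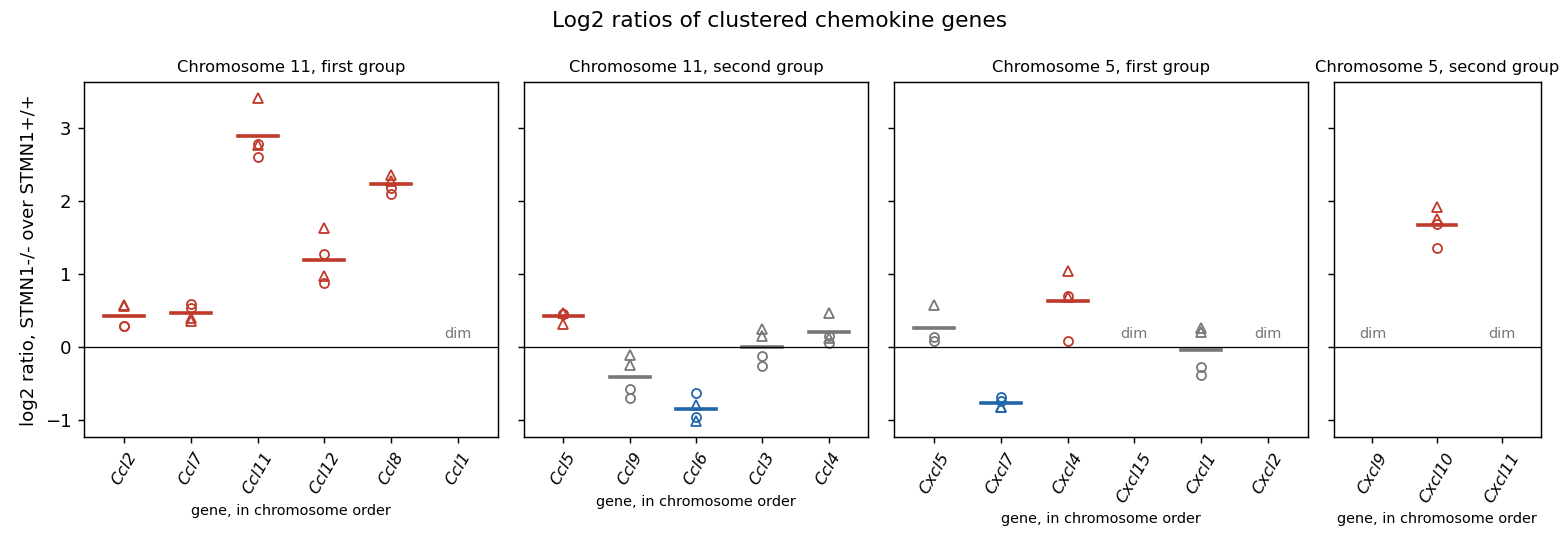
Log2 ratio of STMN1-/- over STMN1+/+ signal for neighbouring chemokine genes in chromosome order, 2 groups on chromosome 11 and 2 on chromosome 5, with circles (STMN1-/- in Cy3) and triangles (Cy5) for arrays and a bar for the mean of the brightest probe. In the first chromosome 11 group all 5 tested genes are above 0, whereas Ccl6 in the second and Cxcl7 on chromosome 5 are below 0 with means of -0.85 and -0.77.

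A second CC group lies 1397 kb further along chromosome 11 and moved both ways. Ccl5 (RANTES, which attracts T cells) was higher with both probes, and Ccl6 was lower. Ccl5 (A_52_P638459, its brighter probe) measured 894, 939.8, 851 and 993 in STMN1-/- MEFs, against 652, 686, 615 and 796 in STMN1+/+ MEFs, 1.34-fold (log2 0.42 ± 0.06, SE, n = 4, adjusted p = 0.00931, limma). The dimmer Ccl5 probe gave 1.51-fold (adjusted p = 0.00405, limma), and neither probe's groups overlapped. Ccl6, a mouse CC ligand that acts through Ccr1, measured 191, 170.1, 207 and 197 in STMN1-/- MEFs, against 296, 332, 359 and 399 in STMN1+/+ MEFs, a log2 ratio of -0.85 ± 0.08 (SE, n = 4), or 1.81-fold lower (adjusted p = 0.00403, limma).

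Ccl9, whose probe lies 13.7 kb from that of Ccl6, measured 944, 995, 1126 and 1356 in STMN1-/- MEFs, against 1540.4, 1491, 1344 and 1467 in STMN1+/+ MEFs. Its ratio was negative on every array but did not pass the test (log2 -0.42 ± 0.12, SE, n = 4, adjusted p = 0.064, limma), though it did with a dye coefficient in the fit (adjusted p = 0.0099, limma). Ccl3 and Ccl4, at the far end of the group, were well above background and were not called, with log2 ratios of 0.00 and 0.20 (adjusted p = 0.99 and 0.17, limma). Of the other CC ligands, Ccl25, which attracts thymocytes through Ccr9, was lower with 2 of its 3 tested probes. The brightest (A_51_P161265) measured 5345, 5934, 5211 and 6409.6 in STMN1-/- MEFs, against 6648, 7380.3, 6028 and 7476 in STMN1+/+ MEFs, a log2 ratio of -0.27 ± 0.06 (SE, n = 4, adjusted p = 0.0291, limma), with groups that overlapped across arrays. Another (A_52_P326713) was 1.52-fold lower (adjusted p = 0.00792, limma), and the third (A_52_P730698), at a log2 ratio of -0.22, passed only with a dye coefficient (adjusted p = 0.024, limma). The brightest Ccl25 probe lost its call without any 1 array (adjusted p 0.087 to 0.112, limma).

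Ccl20, the ligand of Ccr6, measured 423, 385, 368 and 469.7 in STMN1-/- MEFs, against 388, 337, 175 and 301 in STMN1+/+ MEFs, a log2 ratio of 0.51 ± 0.18 (SE, n = 4) that did not pass the test (adjusted p = 0.10, limma) but did with a dye coefficient (adjusted p = 0.021, limma). Ccl17, Ccl19 and Ccl27 were also well above background in both genotypes and were not called, at log2 ratios of -0.34, -0.07 and 0.06. Ccl19 and Ccl27 have near-identical copies in the mouse genome, so their probes may read more than 1 gene. Ccl1, Ccl21c, Ccl22 and Ccl24 stayed dim on every array.

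Among the CXC ligands, Cxcl10 and Cxcl14 rose, and Cxcl4 and Cxcl7, 3.25 kb apart on chromosome 5 by their probes, moved in opposite directions. Cxcl10 (A_51_P432641, chr5:92334002-92334061 in mm7), an interferon-inducible ligand of Cxcr3, measured 2029.7, 2309, 2515 and 2773 in STMN1-/- MEFs, against 633, 906, 745 and 732 in STMN1+/+ MEFs. The groups did not overlap, at 3.20-fold (log2 1.68 ± 0.11, SE, n = 4, adjusted p = 0.00131, limma). Cxcl9 and Cxcl11, the other ligands of Cxcr3, stayed dim on every array. Cxcl14 (A_51_P209183, BRAK), a strongly conserved CXC chemokine, measured 89153, 97690.0, 90245 and 94165 in STMN1-/- MEFs, against 35036, 40843, 32853 and 34668 in STMN1+/+ MEFs. It was 2.60-fold higher (log2 1.38 ± 0.06, SE, n = 4, adjusted p = 0.000803, limma), again without overlap.

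Cxcl7 (A_51_P428372, pro-platelet basic protein, now Ppbp, whose cleaved form attracts neutrophils) measured 6019, 6085, 5191 and 6092 in STMN1-/- MEFs, against 9741, 10155, 9229 and 10767 in STMN1+/+ MEFs. It was 1.71-fold lower (log2 -0.77 ± 0.06, SE, n = 4, adjusted p = 0.00193, limma), with no overlap. Cxcl4 (A_51_P441426, platelet factor 4, now Pf4) measured 567, 728, 714 and 681 in STMN1-/- MEFs, against 534, 448, 347 and 423 in STMN1+/+ MEFs, 1.55-fold higher (log2 0.63 ± 0.16, SE, n = 4, adjusted p = 0.0486, limma). The rise was small on replicate 1, at a log2 ratio of 0.09, and the call was lost without replicate 2, 3 or 4 (adjusted p = 0.14, 0.12 and 0.14, limma). Cxcl1 and Cxcl5, which attract neutrophils through Cxcr2, were well above background and not called, Cxcl1 with log2 ratios of -0.27, -0.39, 0.21 and 0.26 and Cxcl5 with a mean of 0.26 ± 0.13 (SE) over 3 arrays, since its spot on replicate 4 was marked as an outlier. With a dye coefficient Cxcl5 passed (log2 0.34, adjusted p = 0.028, limma). Cxcl16, the membrane-bound ligand of Cxcr6, gave 0.02 and -0.07 with its 2 probes. Cxcl2, Cxcl13 and Cxcl15 stayed dim on every array.

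**Figure D3:**
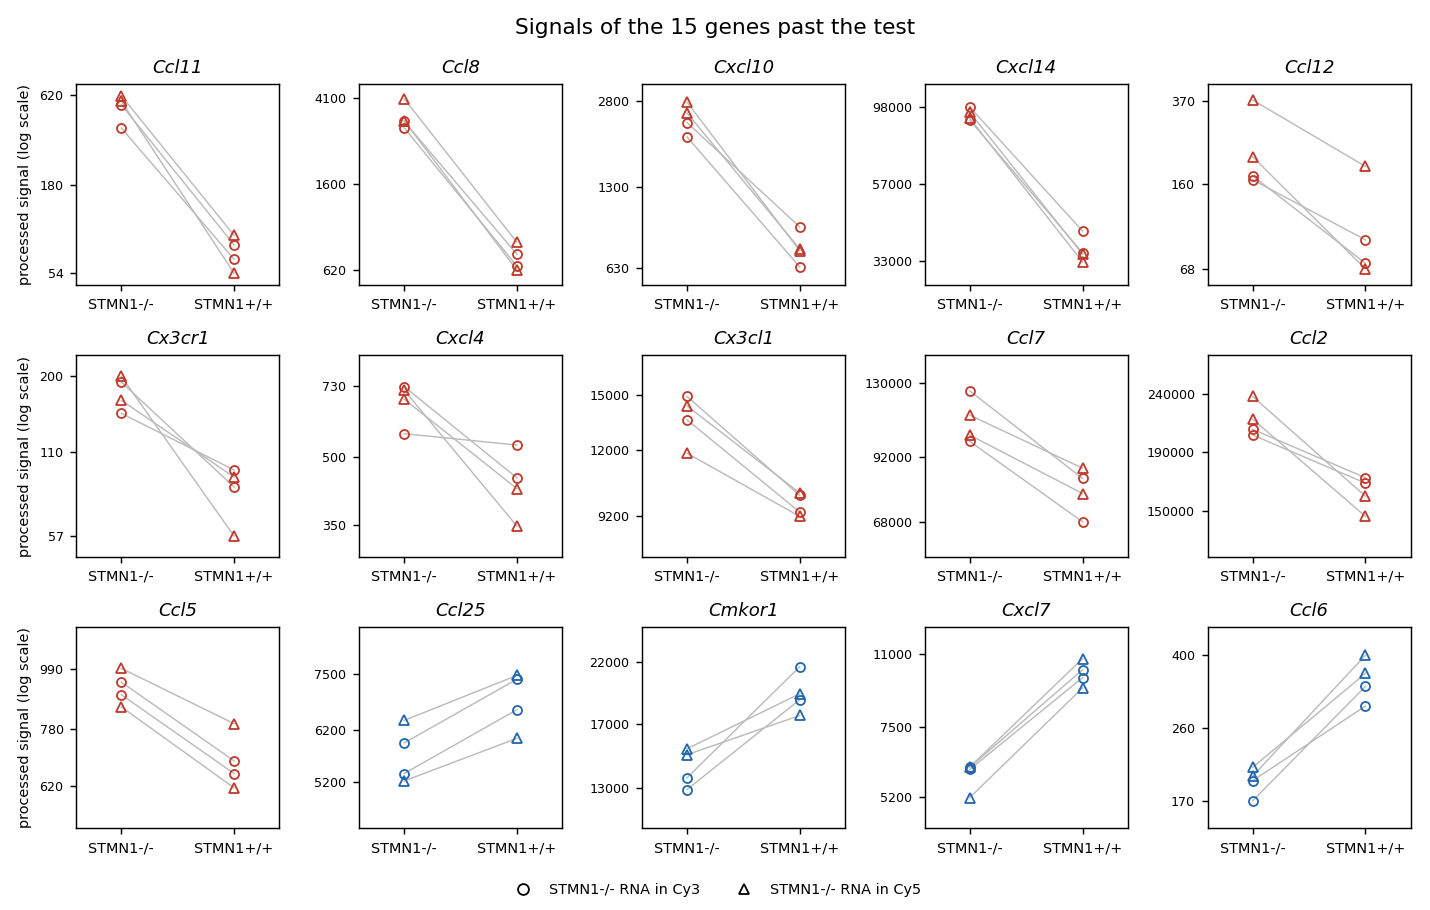
Processed signal (intensity, log axis, a panel and scale for each of the 15 called genes), with STMN1-/- left, STMN1+/+ right and a line joining the values of an array. Ccl8 lies at 2962 to 4071 in STMN1-/- MEFs and 622 to 844 in STMN1+/+ MEFs, whereas the genotypes overlap for Ccl12 and Ccl25.

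Cx3cl1 (fractalkine), a ligand made as a membrane-anchored protein, and its receptor Cx3cr1 were both higher. Cx3cl1 (A_51_P196925) measured 13582, 14922, 11872 and 14365 in STMN1-/- MEFs, against 9359.6, 10013, 9200.1 and 10110.4 in STMN1+/+ MEFs, 1.41-fold (log2 0.50 ± 0.06, SE, n = 4, adjusted p = 0.00729, limma) with no overlap. A second Cx3cl1 probe 9.38 kb away was dim. Cx3cr1 (A_52_P99810) was near background, at 149, 190.4, 199 and 165 in STMN1-/- MEFs, where it was well above background on 3 arrays, against 95.6, 83.7, 57.0 and 90.5 in STMN1+/+ MEFs, where it was on none. It was at least 1.55-fold higher, and like Ccl11 it entered the test through its STMN1-/- signals alone. Its adjusted p of 0.0186 (limma) rests on ratios to dim STMN1+/+ signals. The other Cx3cr1 probe was not called at a log2 ratio of 0.15 (adjusted p = 0.63, limma). The call of A_52_P99810 was lost without replicate 2 or 4 (adjusted p = 0.073 and 0.056, limma). Xcr1, the receptor of Xcl1, was not called with either probe.

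Cxcl12 (SDF-1), which guides progenitor cells during development, was well above background with 2 probes and neither was called. Its brighter probe (A_51_P172502) measured 32314, 33655, 33575 and 35629 in STMN1-/- MEFs, against 30068, 30773, 27119 and 31663 in STMN1+/+ MEFs, a log2 ratio of 0.18 ± 0.06 (SE, n = 4, adjusted p = 0.10, limma), and the other gave 0.14 ± 0.06 (SE, n = 4, adjusted p = 0.13, limma). With a dye coefficient both passed (adjusted p = 0.042 and 0.041, limma). Its signalling receptor Cxcr4 was close to background, at 73.7, 80.7, 100.1 and 164 in STMN1-/- MEFs, against 159.7, 199, 95.8 and 116 in STMN1+/+ MEFs. Its log2 ratios of -1.12, -1.30, 0.06 and 0.50 changed sign with the dye, and it was not called (adjusted p = 0.38, limma, and 0.030 with a dye coefficient). Cmkor1 (now Ackr3), the atypical receptor that takes up Cxcl12, measured 12923, 13574, 14946 and 15321 in STMN1-/- MEFs, against 18805, 21587, 17607 and 19279 in STMN1+/+ MEFs. It was the receptor gene that fell, 1.36-fold lower without overlap (log2 -0.44 ± 0.09, SE, n = 4, adjusted p = 0.0273, limma), and its call was lost without replicate 1, 2 or 4 (adjusted p = 0.096, 0.086 and 0.073, limma).

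The receptors of the higher CC ligands were mostly below detection. Ccr2, the receptor of Ccl2, Ccl7 and Ccl12, stayed dim on every array with both of its probes, as did Ccr1, Ccr4, Ccr7, Ccr10, Ccrl1 and the ligand Xcl1. Ccr3, the receptor of Ccl11, gave log2 ratios of 0.86, 1.37, -0.40 and 0.17 and was not called. Cxcr6 was clearly measured, at 5228, 5551, 5226 and 5392 in STMN1-/- MEFs, against 4547, 4841, 4622 and 4730.2 in STMN1+/+ MEFs, and its groups did not overlap. Its log2 ratio of 0.19 ± 0.05 (SE, n = 4) missed the threshold (adjusted p = 0.056, limma) and passed it with a dye coefficient (adjusted p = 0.021, limma). Ccr6 and Ccr9, the receptors of Ccl20 and Ccl25, were not called at -0.11 and -0.12 (adjusted p = 0.51 and 0.71, limma). Darc, the red cell and endothelial scavenger now named Ackr1, gave -0.05 and 0.02 with its 2 probes. Ccl28, Ccr1l1, Ccr8, Ccrl2, Ccbp2 (now Ackr2, a scavenger of CC ligands) and Cxcr3 were well above background on some arrays only and were not called, with log2 ratios of -0.34 (Ccbp2) to 0.37 (Cxcr3).

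Counted over all members, 33 of the 48 tested probes were well above background in both genotypes on all 4 arrays. Of these, 18 probes of 16 genes were not called, with log2 ratios of -0.42 to 0.51. The p-values say only that these missed the threshold.

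**Figure D4:**
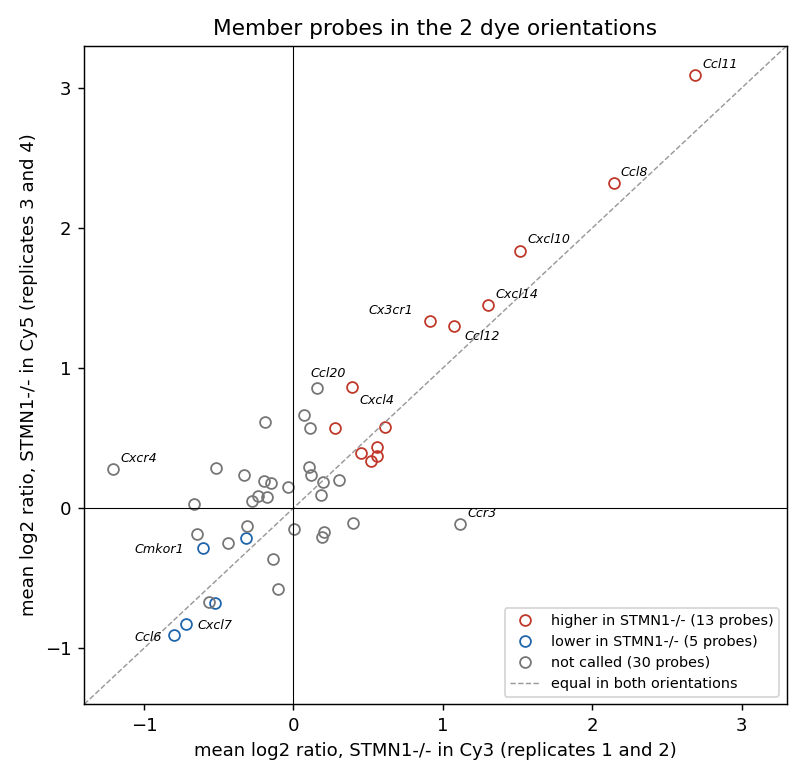
Mean log2 ratio of each tested member probe on the 2 arrays with STMN1-/- RNA in Cy5 against that on the 2 arrays with it in Cy3. Ccl11 (2.69 in Cy3, 3.09 in Cy5) and the other called probes keep their sign, whereas Cxcr4 (-1.21 in Cy3, 0.28 in Cy5) turns.

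The 2 dye orientations were then compared. Between them, 16 of the 48 tested probes turned sign, none of them among the 18 called, which the test against 0 makes likely by itself. Cxcl10 had means of 1.52 in Cy3 and 1.84 in Cy5, Ccl8 had 2.14 and 2.32, and Cxcl7 had -0.72 and -0.83. Ccl2 (0.28 and 0.57) and Cmkor1 (-0.61 and -0.28) differed more between orientations. With a dye coefficient in the fit, 8 more member probes were called, while the share over all probes was 19.3% higher and 19.3% lower. No member probe had a dye effect with an adjusted p under 0.05 (limma).

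Some alternative settings changed calls, of weak and of bright probes. With background correction by normexp (a fitted background) and an offset of 50 intensity units, which shrinks the ratios of dim probes by construction, Ccl11 had a log2 ratio of 0.60 and was no longer called (adjusted p = 0.072, limma), and the calls of both Ccl5 probes, Ccl6, Ccl12, Cxcl4, Cx3cr1, Cmkor1, the dimmer called Ccl25 probe and the second Ccl7 probe were lost too. Without the filter on dim probes, the calls of Ccl2, Cxcl4, Cmkor1 and the brightest Ccl25 probe were lost (adjusted p = 0.054, 0.089, 0.060 and 0.079, limma). The probes of Ccl8, Cxcl10, Cxcl14, Cx3cl1 and Cxcl7 and the brighter Ccl7 probe were called under all 14 alternatives. Their sizes were not fixed, since with normexp the log2 ratio was 1.17 for Ccl8, 0.87 for Cxcl10 and 1.34 for Cxcl14.

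Motifs were searched in the 250 bases before each start. GAAANNGAAA is the core of an interferon response element and was searched on both strands, as was the NF-kB consensus. The TATA box was searched as TATAAA on the coding strand only. The AP-1 site was searched as TGANTCA on both strands, and matches can overlap. Over 32851 mouse promoters of the same length the interferon core was found in 2.98%, the NF-kB consensus in 7.25%, the TATA box in 7.59% and the AP-1 site in 6.75%. In the promoter of Cxcl10 the interferon core lay 213 bases before the start, NF-kB matches 159, 104 and 103 bases before it, where the last pair overlaps, and an AP-1 match 74 bases before it. Cxcl14 held the interferon core 172 bases before its start. Ccl8 and Ccl12 held a TATA box 32 and 31 bases before theirs, and Cxcl7 held 2 at 30 and 8 bases with an AP-1 match at 204 bases, while the Ccl6 window held no match. Ccl2, Ccl5, Ccl7 and Ccl11 were higher but had no entry in the promoter table, so their promoters were not searched. Of the genes with an entry, 2 of the 7 higher, 0 of the 4 lower and 1 of the 21 not called (Ccl19) held the interferon core. The NF-kB consensus was in 1 of the 7 higher, 0 of the 4 lower and 7 of the 21 not called. The TATA box was in 3 of the 7 higher, 3 of the 4 lower and 2 of the 21 not called. For the AP-1 site these counts were 1, 1 and 3. A gene was counted if any of its promoters held a match, whereas the shares above are per promoter. The TATAAA matches of Cx3cl1, Cmkor1 and Ccl25 lay 6, 8 and 16 bases before the start, that of Ccl25 before only 1 of its starts. A match is a description of letters and not a binding site.

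**Figure D5:**
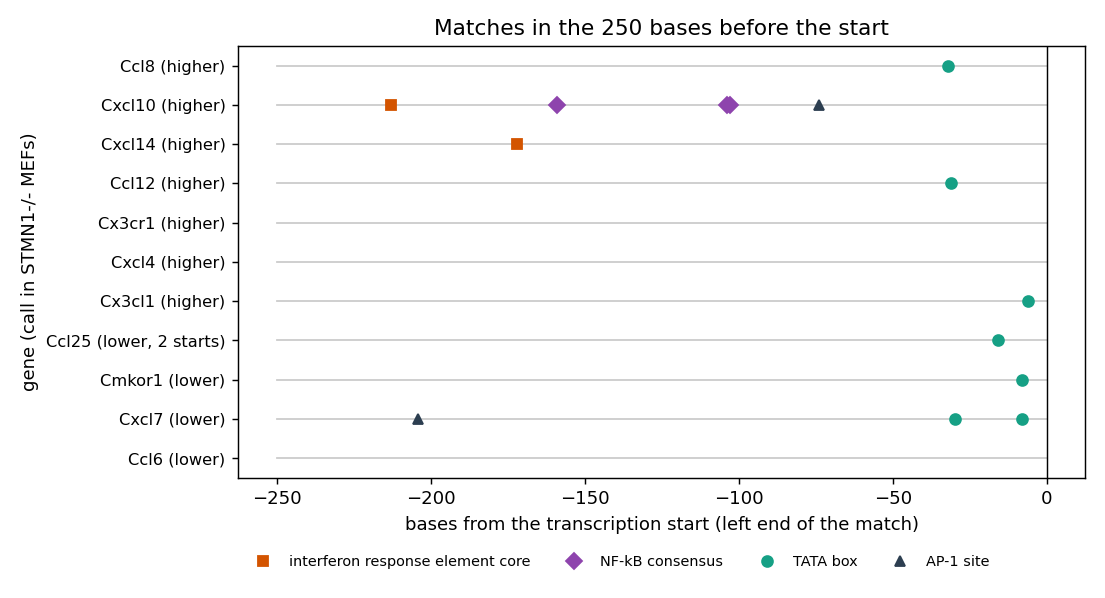
Motif matches in the 250 bases before the start of the 11 called genes that have an entry in the promoter table, as distance from the start in bases. Cxcl10 holds the interferon core at 213 bases and 3 NF-kB matches, Ccl8 and Ccl12 hold TATA boxes at 32 and 31 bases, and the windows of Cx3cr1, Cxcl4 and Ccl6 hold no match.

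Genes around the chemokines were described by fixed lists, each by its calls and its median log2 ratio, beside the 12.2% higher and 11.6% lower of all genes. In interferon signalling, 9 of 20 tested genes were higher and 0 lower (median 0.26), among them Irf7 (1.30), Stat2 (1.09) and Irf9 (1.04), which carry the interferon signal to the nucleus. Of 28 tested genes for trimming or presenting chemokines, 10 were higher and 3 lower (median 0.19), with Ctsk (a protease, 1.15), Dcn (a matrix proteoglycan, 0.99) and Hs6st1 (which sulfates heparan sulfate, 0.95) among the higher. Of 31 tested NF-kB regulators, 6 were higher and 5 lower (median 0.05), with Tnfaip3 (-1.12) and Traf1 (-0.84) lower and Bcl3 (0.94) higher. Of 41 tested genes of signalling downstream of chemokine receptors, 1 was higher and 6 lower (median -0.07), with Pik3r5 (-0.78) and Rgs16 (-0.77) lower.

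Markers of cell types moved with the genotype as well. Of 7 fibroblast markers 5 were higher and 1 lower (median 0.78), Fap, Col1a1 and Col1a2 at log2 ratios of 1.45, 1.28 and 1.14 and Vim at -0.28. S100a4, the brightest of the 7, was not called at -0.61 (adjusted p = 0.31, limma). The summed signal of the 7, S100a4 included, was 3578616 to 5899669 in STMN1-/- MEFs and 3516157 to 4152772 in STMN1+/+ MEFs. All 7 were well above background on every array in both genotypes, as a fibroblast label requires. Of 11 tested leukocyte markers of 14 listed, 2 were higher (Csf1r and Fcgr1) and 3 lower (Cd68, Cd14 and Kit), Ptprc was not called at 0.27 (adjusted p = 0.067, limma), and Itgam, Klrb1c and S100a8 were dim. Their summed signal was 128611 to 150306 in STMN1-/- MEFs and 154399 to 175737 in STMN1+/+ MEFs. Most of this sum was Lyz2, which was not called (log2 -0.23, adjusted p = 0.086, limma), and without it the sums overlapped, at 9547 to 10781 in STMN1-/- MEFs and 10206 to 11713 in STMN1+/+ MEFs. Of 6 epithelial markers the 5 tested were all lower (summed signal 46237 to 53191 in STMN1-/- MEFs and 60468 to 67972 in STMN1+/+ MEFs), with Cdh1 dim on every array in STMN1-/- MEFs. Of 4 endothelial markers Kdr was lower (-0.72), Tek was not called (0.25), and Pecam1 and Cdh5 were dim. The summed signal of Kdr and Tek was 1148 to 1370 in STMN1-/- MEFs and 1673 to 2015 in STMN1+/+ MEFs. The part of these cell types in the chemokine differences was not tested.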

How the data were processed

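RNA of STMN1-/- and STMN1+/+ MEFs was measured on 4 Agilent 2-color arrays. The deposited intensity columns are processed signals from Agilent Feature Extraction (version 9.5.3.1), which the authors ran with LOWESS normalization of the dyes and with surrogates in place of dim signals. A deposited column of log10 ratios, Cy5 over Cy3, comes from the same software. The deposited files also hold flags for spots that are well above background, saturated or outliers.

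Control spots (1486 positive and 153 negative) and outlier spots were left out, repeated spots of a probe were averaged per array, and log2 ratios of STMN1-/- over STMN1+/+ were turned by the dye labels. The filter kept 27759 of 41174 probes, those that exceeded background clearly for either genotype on 1 or more of 4 arrays. Of these 35 had no usable spot, and 27724 were tested with limma 3.58.1 in R 4.3.3 (two-sided, Benjamini-Hochberg over all tested probes). A gene is represented by its brightest tested probe. Probe positions are mm7, as in the files, and promoters are RefSeq, GRCm38.p6. The surrogate values and the LOWESS step bound how far dim ratios can be read. All arrays lay on 1 slide and in 1 scan, so no batch could be fitted, and their number limits the precision.

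The members and the gene lists were chosen with earlier results of these data known. One member is not reported here. Text names every called member, members well above background on all arrays, Cxcl12 with Cxcr4 and Cmkor1, Ccl2 with Ccr2, and up to 3 called genes of each pathway list. Alternatives were normexp with loess, the deposited ratios, centring, the filter on dim probes, outlier spots, a dye coefficient, averaged dye swaps, the methods' t-test and leaving out each array. Scripts were tested on simulated data. Python 3.11.15, pandas 2.3.3, numpy 2.4.6 and matplotlib 3.10.9 were used for annotation and figures.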

Additional observations from a re-analysis of the deposited data

Results flagged for a closer look

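Of 47 probes with values on all 4 arrays, 5 had an array far from the other 3, as measured by the gap to the nearest value over the whole range. Chance alone gives such a value in about 1 of 20 groups. As log2 of STMN1-/- over STMN1+/+ signal, the values were -0.95 on replicate 3 for Ccl17, 0.32 on replicate 4 for the brighter Ccl5 probe, and -0.43 on replicate 2 for Cxcr3. Both Darc probes stood apart on replicate 3, at 0.46 and 0.37. Only Ccl5 among these was called.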

How the results depend on the processing

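No called probe changed direction under any alternative, and 11 probes that were not called turned sign under at least 1, among them Ccr1l1, Ccr3 and Ccr8 with normexp. With normexp and loess, 6 member probes were higher and 2 lower, and 6 genes were higher and 2 lower, beside 3.57% of all probes higher and 4.12% lower. Without a filter on dim probes, so that the dim members were tested too, 12 member probes were higher and 3 lower, and 2 genes were lower. The shares of all probes were then 4.78% higher and 4.55% lower. With a dye coefficient, 18 probes were higher and 8 lower, 8 of them gained, beside 19.3% of all probes in each direction. Leaving out each array in turn gave 10 to 11 probes higher and 3 to 4 lower, and 8 to 10 genes higher and 2 to 3 lower. The shares over all probes were then 5.23% to 5.95% higher and 4.83% to 5.52% lower. The methods' t-test called 14 of 48 member probes after Benjamini-Hochberg adjustment (their threshold, a false discovery rate of 0.05), beside 3857 of 27648 probes in all. Without adjustment it called 21 member probes, beside 9091 probes in all. Ccl2, the second Ccl7 probe, Cxcl4, Cmkor1 and Cx3cr1 were not called by the t-test after adjustment. The deposited ratios, median centring and keeping outlier spots changed no member's call. The ratios already pair both genotypes within an array. No paired analysis was possible because the arrays then form 1 group, with no second group to pair by replicate number. Averaging dye-swapped arrays, in either pairing, called 14 member probes higher and 7 lower, but not the same probes. Pairing replicates 1 with 3 and 2 with 4 gained 3 calls, while pairing 1 with 4 and 2 with 3 gained 5 and lost 2. Over all probes the 2 pairings called 13.1% and 13.7% higher and 12.8% and 13.5% lower. Signal over background limits Ccl11, which was dim in STMN1+/+ MEFs, and Ccl12, Cx3cr1, Cxcr4 and the 17 dim genes. It also limits the other members that were well above background on some arrays only.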
